A study of Populus tomentosa with 4 samples.

Results

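Numbered microRNAs are small RNAs of Chinese white poplar (Populus tomentosa) that the authors' microRNA calling gave only a running number, with no family name. Those of 20 to 23 nt are described here. They were taken from the authors' deposited comparison table as every name that carries a running number and a sequence of 20 to 23 letters, and each distinct sequence was counted once. This gave 27 sequences, carried by 50 names, out of 107 sequences and 193 names in the table. The study sequenced small RNA from shoot tips (labelled SAM as well) and from the leaves around them, both from healthy mature trees growing outdoors, with 2 libraries per tissue and 4 in all. No treatment or genotype is given. Separate trees are not mentioned for the replicate libraries, so the spread between them may be technical. The table held 1 pooled signal per tissue, a normalized read abundance of unstated scale, with the authors' log2 fold change (shoot tips over leaves) and their FDR, an adjusted p-value. It listed only microRNAs with an FDR below 0.05, so how many numbered microRNAs were tested and not called is not known. No messenger RNA was measured, so the tissue labels could not be checked against marker genes.

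Plant microRNAs are cut from hairpin transcripts by a Dicer-like enzyme and loaded into an Argonaute protein, which then cleaves or silences transcripts that pair closely with them. The main Argonaute of this pathway favours small RNAs that begin with uracil. Small RNAs one base longer than the range described here belong mostly to another pathway, which directs DNA methylation. Conserved families act widely in leaf and meristem development, while numbered microRNAs are often young, species-specific and weakly expressed.

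The results turn on a few sequences. They are printed 5′ to 3′ with T for U, as in the deposited table, and the capitals mark bases 2 to 8, the seed. The first set is the 3 sequences that were higher in shoot tips.
m2352-3p: tCAGGCAGtgttttgaactcg
m0088-5p: tCACGTCGgggtgtaatatggt
m1889-5p: cTGTGGGAaatggttgtgatgg

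The second set is the 3 pairs of sequences closely related to each other, which allow near-identical microRNAs to be compared.
m2623-3p: tATTCTGGtgtcctaggcgtaga
m2576-3p: tATTCTGGtgtccaaggcgt
m0130-5p: aTGGACTTccattagctcttc
m0129-5p: tGGACTTCcattagctcttcg
m0246-3p: cTTGGAGAcaaacaatgaaatc
m0094-3p: cTTGGAGAcaaataatgaaatt

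The third set is the other leaf-biased sequences that are abundant, carry many names, were listed at 0 in shoot tips with a high leaf signal, rest mostly on 1 leaf library or hold many disease resistance loci.
m0571-3p: aCTCTAGTgtttgtagctcct
m1798-5p: tGTTTGGAggaagagagaatt
m0447-3p: cAGCACTAaaagaactcactt
m0791-3p: aTAGGTAAgacgactgttgca
m1739-5p: tATCCAACtaccttttgtttt
m0793-5p: tTGATGGCtgctcaaaacttg
m1009-3p: tTATTTGAtcgatgagggaat
m0531-5p: tCTGCTGCtggtgtctgtggc
m1403-5p: cTCTTCTCtgataatatgctg

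Most numbered microRNAs of this length were lower in shoot tips than in leaves. According to the authors' deposited table, lower signals in shoot tips at an FDR below 0.05 were found for 24 of the 27 sequences, or 88.9%, against a background of 57.9% of all 107 listed sequences, and 3 were higher, against 42.1%. By names the balance was 47 lower, against 62.2% of all listed names, and 3 higher. The share lower was 63.5% among the 52 sequences of known families and 17.9% among the 28 numbered sequences of 24 nt. These shares were not compared by a test. The length limit fell between unlike values: all 3 sequences of 23 nt were lower in shoot tips, while 5 of the 28 sequences of 24 nt were. At an FDR below 0.01 the table kept 13 of the 27, or 48.1%, against a background of 62.6%, and none of these 13 was higher in shoot tips. In whole tissue, fewer cells of a type and less RNA per cell cannot be told apart.

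**Figure D1:**
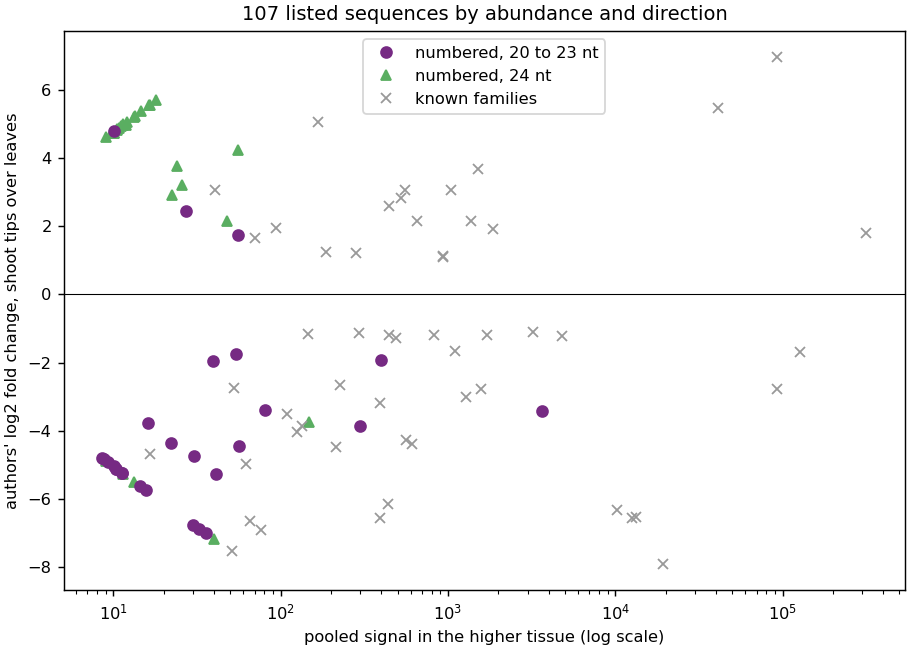
Authors' log2 fold change, with shoot tips over leaves (y), against the pooled signal in the higher tissue (x, log scale) for 107 listed sequences, each point 1 sequence: purple circles are numbered sequences of 20 to 23 nt, green triangles those of 24 nt, grey crosses known families. Of the purple circles 24 lie below 0 and 3 above, most of them at low signal.

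These microRNAs were scarce. Over the 27 sequences the signal in the higher tissue had a median of 27.3 and ran from 8.62 to 3635, against a median of 539.6 for known sequences and 12.7 for numbered sequences of 24 nt. Together the 27 made up 0.113% of the summed signal of all listed sequences in shoot tips and 1.24% in leaves. One sequence, m2623-3p, held 56.6% of the members' signal in shoot tips and 74.2% in leaves. In shoot tips 13 of the 27 were listed at 0, and in leaves 1 was. For comparison, 1 known sequence was listed at 0 in shoot tips and none in leaves, and the 24-nt sequences had 4 zeros in shoot tips and 18 in leaves. These numbers of zeros are partly set by the filter. Since only sequences with an FDR below 0.05 are listed, a scarce one could hardly pass without a value near 0 in the other tissue. Of the 13 members at 0 in shoot tips, 8 had a leaf signal under 12.

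**Figure D2:**
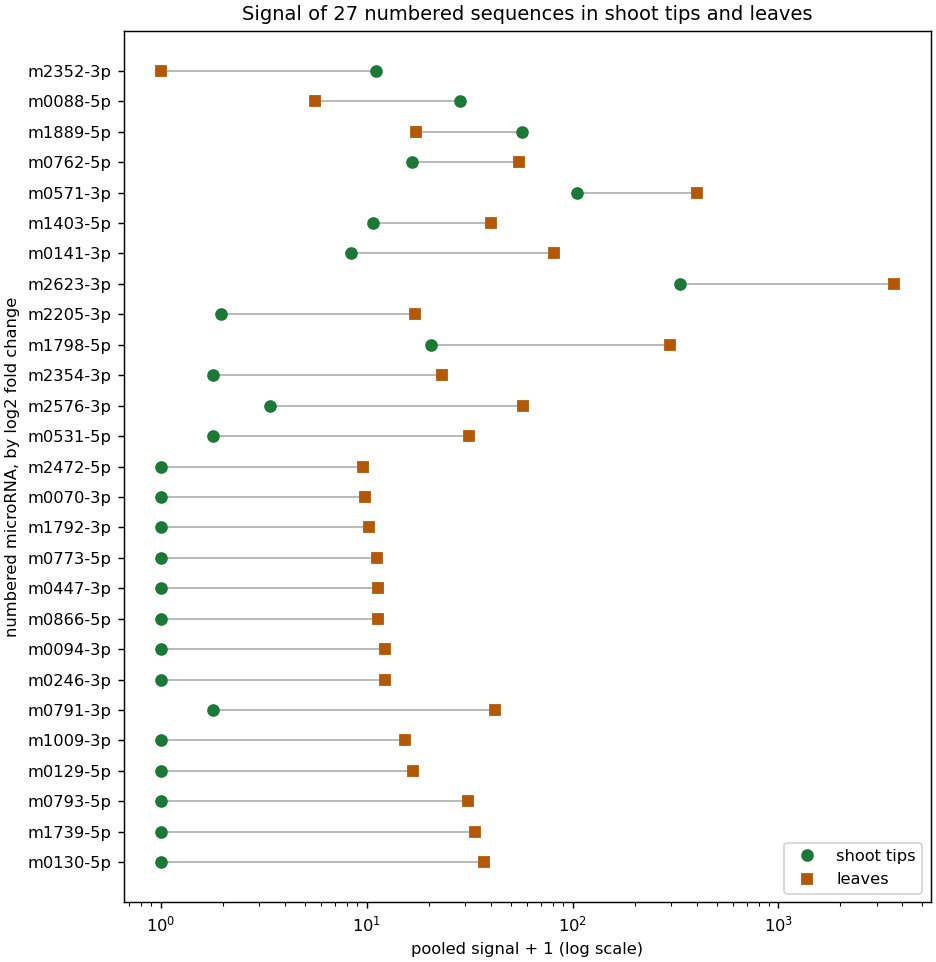
Pooled signal plus 1 (x, log scale) of each of the 27 numbered sequences in shoot tips (green circles) and leaves (orange squares), ordered from the highest log2 fold change at the top, with a line joining the tissues. The 3 uppermost sequences have shoot tips to the right, and 13 of the others sit at a shoot tip signal of 0.

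Each pooled signal proved to be a sum of whole multiples of 2 steps, so reads per library could be recovered for all 27 sequences under the coarsest steps that fitted. For the large leaf signal of m2623-3p the division between libraries was not unique under any of the finer step pairs, so its leaf reads rest on that choice. The libraries carry no label and are called A and B here. One read was worth 0.787 and 0.952 in shoot tip libraries A and B and 0.882 and 1.33 in leaf libraries A and B, in the units of the signal and taking it as the mean of both libraries. All 27 sequences had reads in both libraries of the tissue in which they were higher. Under these steps the libraries of the tissues did not overlap for any of the 27, but the same held for 100% of the 97 listed sequences with recovered reads, so this is not a property of numbered microRNAs. The spread between leaf libraries was wider than for known microRNAs. Over the 24 lower sequences the higher leaf library exceeded the other by a median of 1.64-fold, and 15 of the 24 agreed within 2-fold. Of the 33 known lower sequences, 26 had reads recovered in both leaf libraries, with a median of 1.13-fold and a largest gap of 2.28-fold. Members have far fewer reads than known sequences, and the part of read number in this spread was not tested. Leaf A was the higher library for 12 of the 24 and leaf B for the other 12, with m2623-3p among the second under the coarsest steps. For the 26 known lower sequences the balance was unlike this, with leaf A higher in 5 and leaf B in 21.

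**Figure D3:**
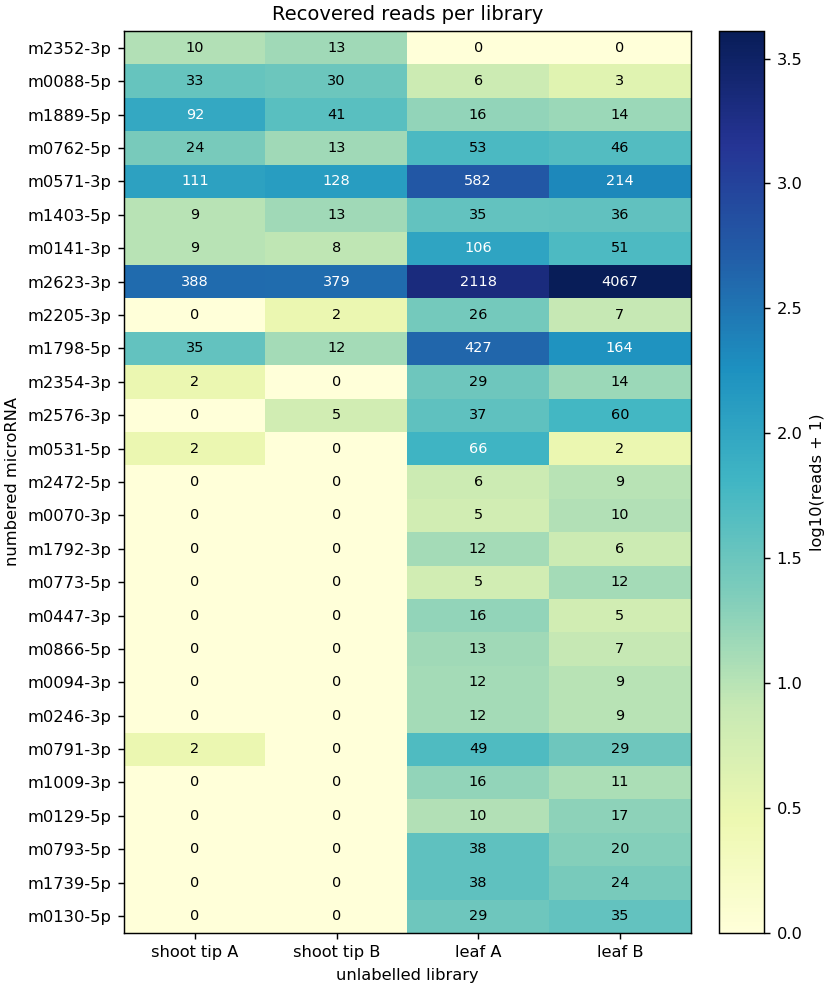
Recovered reads of the 27 numbered sequences (rows, highest log2 fold change at the top) in the unlabelled shoot tip libraries A and B and leaf libraries A and B (columns), with the colour giving log10 of reads plus 1. In m0531-5p leaf A has 66 reads and leaf B has 2, and 13 rows have 0 reads in both shoot tip libraries.

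The 3 sequences higher in shoot tips had modest signals and FDR values close to the threshold. M1889-5p had 92 and 41 reads in shoot tip libraries A and B and 16 and 14 reads in leaf libraries A and B. Its library values were 72.4 and 39.0 in shoot tips and 14.1 and 18.6 in leaves. They did not overlap, as in every listed sequence with recovered reads, so the gap gives no support. The shoot tip libraries of m1889-5p differed by 1.86-fold. The authors' deposited table gave it 55.7 in shoot tips and 16.4 in leaves, for which the log2 fold change was 1.75 and the FDR 0.0448. M0088-5p had 33 and 30 reads in shoot tips and 6 and 3 in leaves, and in the authors' deposited table a signal of 27.3 against 4.64, where the log2 fold change was 2.44 and the FDR 0.0438. M2352-3p had 10 and 13 reads in shoot tips and 0 in both leaf libraries. With 3 reads over the tissue as the most that a count of 0 allows, it was at least 5.08-fold higher in shoot tips, taking the shoot tip signal as measured. The exact 95% counting interval of its read ratio began at 4.67-fold, and the authors' deposited table gave it an FDR of 0.0358. None of the 3 had more than 1 name.

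Their predicted targets differed from each other. M2352-3p had 20 disease resistance loci among its 166 predicted loci, or 12%, including 7 described as RGA1 and 7 as RGA3, intracellular immune receptors named in wild potato. Of these 20 loci 10 were also predicted for miR482, the known family that targets such receptors. M1889-5p had all 5 loci in the table described as amino acid permease 3, a membrane carrier of amino acids, and all 3 described as serine carboxypeptidase-like 50. M0088-5p had 5 of the 8 loci described as a UDP-glucose flavonoid 3-O-glucosyltransferase 3, an enzyme that adds glucose to flavonoids, and 12 receptor-like or serine/threonine kinases among 92 loci.

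M2623-3p was the most abundant member in both tissues and ranked 21 in shoot tips and 9 in leaves among all 107 sequences. Under the coarsest steps it had 388 and 379 reads in shoot tips and 2118 and 4067 in leaves. Library values under those steps were 305 and 361 in shoot tips and 1869 and 5401 in leaves, and the leaf values depend on the choice of steps. In the authors' deposited table it had 333 in shoot tips and 3635 in leaves, for which the log2 fold change was -3.42 and the FDR 1.16e-13. Its 98 predicted loci were led by 3 of the 9 described as NLP2, a factor of nitrate response in Arabidopsis. All 3 described as subtilisin-like protease SBT1.2 were also among them. Whether m2623-3p and its near relative m2576-3p come from microRNA hairpins or are fragments of another RNA, such as ribosomal RNA, was not tested.

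M2576-3p shares the seed and the first 20 bases of m2623-3p except for T14A, the base of m2623-3p first and positions counted from the 5′ end, and lacks the last 3 bases. It was far scarcer, with 0 and 5 reads in shoot tips and 37 and 60 in leaves. The authors' deposited table gave it 2.38 in shoot tips and 56.2 in leaves, for which the log2 fold change was -4.44 and the FDR 6.43e-05. Its leaf B value exceeded leaf A 2.44-fold. The pair shared 19 predicted loci, which is 19.4% of those of m2623-3p and 12.5% of those of m2576-3p. All 3 loci of SBT1.2 were among the loci of each. M2576-3p also had 10 MYB factors, a large family of transcription regulators, among its 152 loci, 4 of them described as the repressor MYB5.

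M0130-5p and m0129-5p are the same 20 bases shifted by 1, so that their seeds differ. Both were listed at 0 in shoot tips. M0130-5p had 29 and 35 reads in leaves and a leaf signal of 36.0, the highest of the 13 members at 0. Taking the leaf signal as measured, it was at least 25.2-fold lower in shoot tips. The authors' deposited table gave it an FDR of 4.06e-05. M0129-5p had 10 and 17 reads in leaves and was at least 11.0-fold lower in shoot tips, with an FDR of 0.00515 in the authors' deposited table. They shared 92 predicted loci, 62.6% of those of m0130-5p and 64.3% of those of m0129-5p. M0130-5p had all 3 loci described as mevalonate kinase, an enzyme of isoprenoid synthesis, and m0129-5p led with 4 loci of the disease resistance protein RGA4.

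M0246-3p and m0094-3p have the same seed and 22 bases that differ at T13C and T22C, with the base of m0094-3p first. Their values were identical, with 0 reads in both shoot tip libraries and 12 and 9 reads in leaves. In the authors' deposited table both had a leaf signal of 11.3 and an FDR of 0.0172. Taking the leaf signal as measured, each was at least 7.90-fold lower in shoot tips. Whether both were counted from the same reads was not tested, and no source used here states the counting rule. M0246-3p carried 6 names and m0094-3p 1. They shared 63 predicted loci, 47.0% of those of m0246-3p and 42.9% of those of m0094-3p, among them loci described as glutamate receptor 2.8, a plant channel of calcium signalling. M0094-3p also had all 4 loci of one uncharacterized calcium-binding protein and 3 of the 4 loci of the ubiquitin ligase KEG.

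No other close relation was found. With at least 18 overlapping bases and at most 2 differences, none of the 27 matched a known sequence or a 24-nt sequence in the table, and none was complementary to a listed sequence. None shared bases 2 to 8 with a known microRNA, and the 27 sequences held 25 different seeds. Pairs of members outside the 3 related ones shared at most 7 predicted loci, with a median of 0 over 348 pairs.

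The other abundant leaf-biased members were m0571-3p and m1798-5p. M0571-3p had 111 and 128 reads in shoot tips and 582 and 214 in leaves. Its library values were 87.4 and 122 in shoot tips and 514 and 284 in leaves, and the authors' deposited table gave a log2 fold change of -1.92 and an FDR of 4.49e-05. Its sign was among the 3 that turned when miR159 and miR319 were left out of the listed total. It had 143 predicted loci with no dominant description, the most frequent being 3 for a GDSL esterase/lipase. M1798-5p had 35 and 12 reads in shoot tips and 427 and 164 in leaves. In the authors' deposited table it had 19.5 in shoot tips and 297 in leaves, for which the log2 fold change was -3.88 and the FDR 9.09e-13. The nearest libraries of the tissues were 7.91-fold apart, and the tissues did not overlap for any listed sequence with recovered reads. For m1798-5p shoot tip A exceeded shoot tip B by 2.41-fold and leaf A exceeded leaf B by 1.73-fold. Its 175 loci included 3 of the 4 described as glutamate receptor 2.7 and 5 WRKY factors, regulators of defence and stress genes.

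Most members had 1 or 2 names. Of the 27 sequences 16 had 1 name, 7 had 2, 1 had 3, 1 had 5 and 2 had 6. M1798-5p and m0246-3p had 6 names each, m0447-3p had 5 and m0791-3p had 3. For 9 of the 11 sequences with several names every name had the same values. The exceptions were m1739-5p, whose 2 names had 38 and 24 reads in leaves against 31 and 21, and m2576-3p, whose 2 names differed by 2 reads in leaf A. M0447-3p had 0 reads in shoot tips and 16 and 5 in leaves, with an FDR of 0.0238 in the authors' deposited table. M0791-3p had 2 and 0 reads in shoot tips and 49 and 29 in leaves. Its read ratio of shoot tips over leaves was 0.0208, with an exact 95% counting interval of 0.00248 to 0.0778, and the authors' deposited table gave an FDR of 6.43e-05. It had 5 of the 9 loci described as laccase-4, an oxidase that polymerizes lignin in Arabidopsis, and all 5 were also predicted for miR397, the known laccase family. Names of 2 sequences, m0791-3p and m1792-3p, carried the 5p arm at one locus and the 3p arm at another. Among the rest, 13 sequences were named as 5p arms and 12 as 3p arms.

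The members at 0 in shoot tips had between 15 and 64 leaf reads in all, and the bound on their difference ran from at least 6.04-fold to at least 25.2-fold lower, taking the leaf signal as measured. The exact 95% counting intervals of the read ratio of shoot tips over leaves ended at 0.227 for m2472-5p and 0.0482 for m0130-5p, the members at either end of that range. These intervals allow smaller differences than the bounds, since they include the counting error of the leaf reads. The members were listed only because their FDR passed the threshold, and that filter favours zeros and large differences. M1739-5p had 38 and 24 reads in leaves, where the authors' deposited table had an FDR of 6.19e-05, and was at least 22.9-fold lower in shoot tips. Its 141 loci included 3 of the 7 described as wall-associated receptor kinase-like 8. M0793-5p had 38 and 20 reads in leaves, where the authors' deposited table had an FDR of 0.000103, and was at least 21-fold lower. It had 21 receptor-like or serine/threonine kinases among 156 loci, including 4 of the 8 described as TMK1, a receptor kinase of auxin signalling in Arabidopsis. M1009-3p had 16 and 11 reads in leaves and was at least 10.1-fold lower, with 5 loci described as TMV resistance protein N, an immune receptor first described in tobacco, and both loci described as auxin response factor 17 among its 133. For these 3 the leaf libraries differed by at most 1.26-fold. The log2 fold changes of members at 0 ran from -7.02 to -4.79 in the authors' deposited table, but a fitted value against 0 is no bound.

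One member rested on a single library. M0531-5p had 2 and 0 reads in shoot tips, and 66 reads in leaf A against 2 in leaf B. Its library values were 1.57 and 0 in shoot tips and 58.2 and 2.66 in leaves. Leaf A thus stood 21.9-fold above leaf B, and leaf B stood only 1.69-fold above the higher shoot tip library. Without leaf A its log2 ratio of shoot tips over leaves was -1.75, against -4.74 (FDR 0.00515) in the authors' deposited table. All 12 pairs of steps that fitted the leaf signals put between 95.6% and 98.5% of its signal in 1 library. It was chosen for description after its values were seen. Its 169 loci held 10 of the 14 described as fasciclin-like arabinogalactan protein 12, cell surface proteins linked to secondary walls in Arabidopsis, and 8 of these 10 were also predicted for miR3627. It also had 9 MYB factors.

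The other members were lower in shoot tips with fewer reads or smaller differences. M0141-3p had 9 and 8 reads in shoot tips and 106 and 51 in leaves, the authors' deposited table giving it -3.40 as log2 fold change at an FDR of 4.08e-06, and 17 of its 144 loci were pentatricopeptide repeat proteins, which edit and process organelle RNA. M1403-5p, with 9 and 13 reads in shoot tips and 35 and 36 in leaves, had the highest FDR of all, 0.0493 in the authors' deposited table. M0762-5p had 24 and 13 reads in shoot tips and 53 and 46 in leaves, the authors' deposited table giving it -1.74 as log2 fold change at an FDR of 0.0398. For m1403-5p and m0762-5p the sign also turned when miR159 and miR319 were left out of the listed total. M2354-3p and m2205-3p each had 2 reads in 1 shoot tip library and 0 in the other. Their leaf libraries had 29 and 14 reads and 26 and 7 reads, and the read ratios of shoot tips over leaves were 0.0378 (exact 95% counting interval 0.00444 to 0.145) and 0.0493 (0.00573 to 0.193). M2354-3p had 5 of the 8 loci described as ammonium transporter 3 member 1. The remaining 5, m2472-5p, m0070-3p, m1792-3p, m0773-5p and m0866-5p, had 0 reads in shoot tips and 15 to 20 in leaves.

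The members were mostly 21 nt long and began with T more often than with any other base. Lengths were 20 nt in 4 sequences, 21 nt in 15, 22 nt in 5 and 23 nt in 3, and the 52 known sequences had 10, 34 and 8 at 20, 21 and 22 nt. A first T, the U of the RNA, was present in 15 of 27, or 55.6%, against 75.0% of known sequences and 21.4% of 24-nt sequences, of which 19 of 28 began with A. C came first in 8 members, A in 3 and G in 1, and among known sequences C came first in 5 of 52. Of the 15 members of 21 nt, 10 began with T, against 1 of 4 of 20 nt. The 3 higher sequences began with T in 2 cases and C in 1, and the 24 lower ones with T in 13 and C in 7. The share of G and C had a median of 42.9% and ranged from 21.7% in m0070-3p to 69.6% in m2472-5p, a wider range than the 36.4% to 66.7% of known sequences.

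The table predicted 3450 distinct target loci for the 27 sequences, 33.5% of its 10305. A locus is a P. trichocarpa-style gene identifier with a Swiss-Prot description, and it is a prediction, not a measured transcript. The number per sequence ran from 60 for m2472-5p to 177 for m1403-5p with a median of 146, against medians of 154 for known sequences and 90.5 for 24-nt ones. Most loci, 3087 or 89.5%, belonged to 1 member only. Of the 3450 loci 767, or 22.2%, were also predicted for a known microRNA, which is 13% of the 5904 known loci, and 307 were also predicted for a 24-nt sequence. The 3 higher members had 391 loci and the 24 lower ones 3091, with 32 in both. No description was given for 20.1% of the members' loci, against 20.8% of all loci.

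Taken over all 27 sequences, the largest classes of predicted targets had shares near those of the rest of the table. Receptor-like and serine/threonine kinases were the largest class, with 204 loci or 5.91% of the members' loci, against 6.45% of all other loci. Disease resistance proteins, immune receptors that detect pathogens, were 126 loci or 3.65%, against 3.03%, and pentatricopeptide repeat proteins were 80 or 2.32%, against 3.19%. Transporters were 77 (2.23%, against 2.82%) and glycosyltransferases 46 (1.33%, against 1.25%). Among smaller classes, MYB factors had 27 loci (0.783%, against 0.336%), cytochromes P450 39 (1.13%, against 0.7%) and histones and chromatin 38 (1.10%, against 0.598%). Small RNA machinery had 8 of the 13 in the table (0.232%, against 0.0729%). These classes were picked for higher shares, and others had lower ones, such as zinc finger proteins (0.928%, against 1.2%) and helicases (0.464%, against 0.773%). Among factors of leaf growth, TCP factors had 4 loci (0.116%, against 0.146%) and growth-regulating factors 3 (0.087%, against 0.233%). Photosynthesis had 2 loci (0.058%, against 0.233%) and the cell cycle 5 (0.145%, against 0.365%), while xylem and secondary wall had 32 (0.928%, against 0.613%). Of these 32 loci 10 were predicted for m0531-5p, the member that rested on a single library. The words matched for photosynthesis left out chloroplast ATP synthase, of which m1889-5p and m0571-3p had 2 loci each. The low share of that class therefore depends on the words matched. No test of these shares was run.

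**Figure D4:**
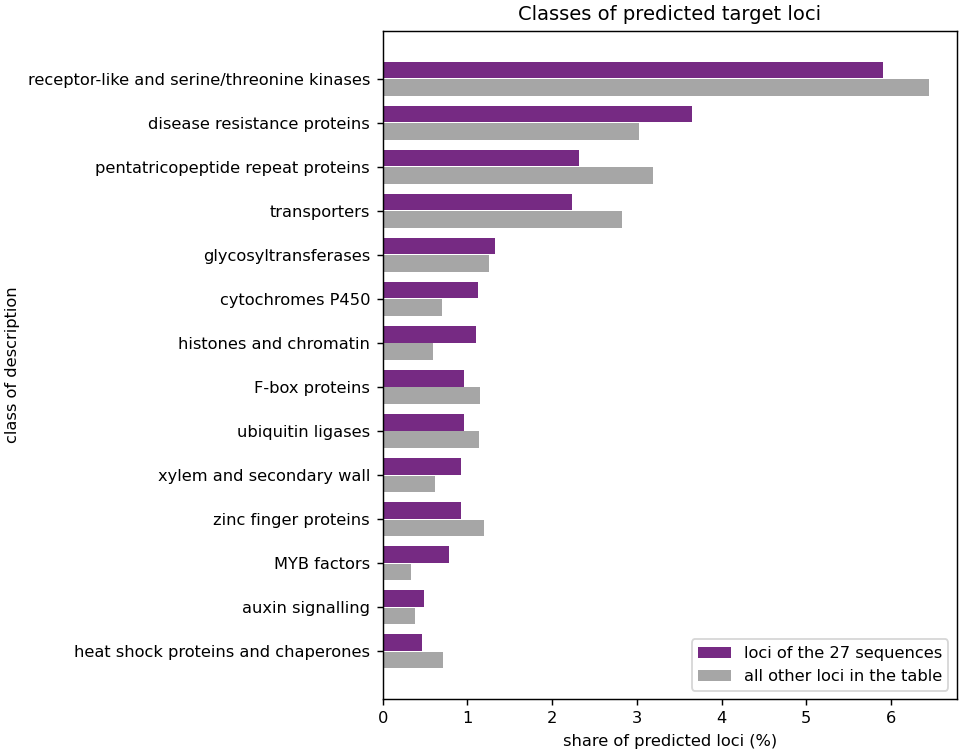
Share of predicted loci (x, %) in the 14 classes of description with the most loci, for the 3450 loci of the 27 numbered sequences (purple) and for all other loci in the table (grey). Kinases lead in both at 5.91% and 6.45%, and MYB factors stand at 0.783% and 0.336%.

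A few classes had many of their loci in 1 or 2 sequences. M1403-5p had 28 disease resistance loci among 177, or 15.8%, and m2352-3p 20 of 166, while no other member had more than 8. The 28 loci of m1403-5p included 9 described as At4g27220, 8 as At4g27190 and 5 of the 7 described as RPS2, an immune receptor of Arabidopsis, and 14 of the 28 were also predicted for miR482. In the authors' deposited table m1403-5p was lower and m2352-3p higher in shoot tips, at FDR values of 0.0493 and 0.0358, both near the threshold. The sign of m1403-5p turned when miR159 and miR319 were left out of the listed total. Of the 27 MYB loci, m2576-3p had 10 and m0531-5p 9. M2472-5p had 7 of the 10 loci described as cytochrome P450 89A2 among its 60. M0070-3p had all 6 loci described as SPX domain-containing protein 3, a protein of phosphate sensing, and all 3 described as squamosa promoter-binding-like protein 14, a factor of developmental phase change.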

How the data were processed

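Small RNA libraries were made from total RNA of both tissues, per the labels' protocols. For the trimming, aligner, microRNA caller, genome build, scaling, test and target prediction, the method is not stated in any label or header used here. The authors deposited 1 table with a signal per tissue, pooled over 2 libraries, a log2 fold change (shoot tips over leaves) and an FDR, which is an adjusted p-value. It had 27252 lines, of which 1215 repeated another and were dropped. The depth of each library is unknown.

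Numbered microRNAs of 20 to 23 nt were kept. A sequence with several names took the values of the name with the highest sum of both signals. Direction and significance are the authors' log2 fold change and FDR as deposited; no test was added. Reads were recovered by writing each signal up to 5000 as whole multiples of 2 steps between 0.15 and 1.5, kept within 3 rounding units when the next solution lay at least 10 times farther off. Of the step pairs that fitted, 9 for shoot tips and 12 for leaves, the coarsest was used; finer steps would give more reads and can divide large signals such as that of m2623-3p differently. On simulated data of 113 and 118 values, made with known steps, 101 of 101 and 112 of 112 kept solutions were right. This does not show that the coarsest of the fitting pairs is the true one in these data. For a tissue at 0, a bound used 3 reads over the tissue at the larger step and took the signal of the other tissue as measured. Intervals are exact (Clopper-Pearson) on pooled reads and cover counting error only. The bounds cover counting error only in the tissue at 0.

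Classes of targets were matched by words in the descriptions. Described in full were, per direction, the 8 largest changes whose higher signal was at least 5, the 3 highest signals per tissue, members with at least 3 names and members sharing a seed with a known microRNA; this gave 15. Other members, further descriptions and class counts were picked once their values were known. The members, lists and rules were chosen with earlier results of these data known. Python 3.11.15, numpy 2.4.6, scipy 1.17.1, pandas 2.3.3 and matplotlib 3.10.9 were used.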

Additional observations from a re-analysis of the deposited data

How the results depend on the processing

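Against 3 sequences higher and 24 lower in shoot tips, counting names gave 3 and 47, an FDR below 0.01 gave 0 and 13, and 21-nt sequences alone gave 1 and 14, each by construction of the count. A signal of at least 10 gave 3 and 21, as did 20 to 22 nt, and a signal of at least 5 gave 3 and 24. Leaving out 1 recovered library in turn, an alternative chosen after seeing the data, left 3 to 3 higher and 24 to 24 lower sequences that differed by at least 2-fold the listed way. This count could hardly fall, since all were listed for a difference in these same libraries, so it gives no support. The libraries did not overlap for 100% of the 97 listed sequences with recovered reads. M0531-5p counted as kept without leaf A at a log2 ratio of -1.755. The median log2 fold change of -4.79 became -3.51 with a pseudocount of 1, -5.53 with 0.1, and -2.98 with 3 reads in place of 0, since 14 sequences have a zero. Dividing by the listed total without miR159 and miR319 added 2.17 to every log2 fold change, with a median of -2.62, and turned m0762-5p to 0.43, m0571-3p to 0.25 and m1403-5p to 0.20. The listed total holds only called microRNAs and is not the depth; with signals taken as per 1000000 reads, an alternative chosen after seeing the data, the shift was 0.73, the median -4.06, and all 27 kept their sign. Taking the mean over names or the name with the lowest sum changed no sign. The share of disease resistance loci, 3.65%, was 3.21% by lines and 0.725% for each of the most frequent whole descriptions, ribonuclease H protein At1g65750 and TMV resistance protein N with 25 loci each, of which the second belongs to the class. No paired analysis was possible because the pooled tissue columns carry no replicate numbers. Count and limma-type models per library were not run, since only microRNAs already called are listed.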

Other observations

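Some predicted loci belonged to several members. Of the 3450 loci 331 belonged to 2 members, 30 to 3 and 2 to 4, and the 3 related pairs shared 19, 63 and 92 loci. One of those 2, POPTR_0001s04970, is described as callose synthase 3, an enzyme that makes callose at plasmodesmata in Arabidopsis, and was predicted for the shifted pair m0129-5p and m0130-5p and for m0141-3p and m1792-3p. Both MAP kinase loci among those with 3 members, described as MAP kinase 4 and MMK2, were predicted for m0793-5p and m2354-3p, with m0773-5p at the first and m2576-3p at the second. Loci described as LRR receptor kinase GSO1 were shared by m0070-3p and m1792-3p in 2 cases. M1792-3p had 20 kinase loci among 146, and m0773-5p had all 3 loci described as actin-7. These loci were picked after the predictions were seen.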
